A study of Homo sapiens with 2 samples.

Results

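The protocadherin genes are described here in the JARID2 peak list of MDA-MB-231, an untreated human triple-negative breast cancer cell line. Members were taken by name, as every peak whose gene symbol starts with PCDH. They were 89 of the 67071 peaks in the list and carried 29 of its 26257 symbols. Of these, 20 peaks belonged to the chromosome 5 clusters (8 to PCDHA, 4 to PCDHB, 8 to PCDHG) and 69 to single genes. The study made 1 chromatin immunoprecipitation (ChIP) library with a polyclonal JARID2 antibody and 1 input DNA library of the same untreated cells. The list comes from the ChIP library, and the input library itself was not analysed here. With 1 library there is no replicate check and no test, and the sequencing depth of the library is unknown. Peaks are not replicates of a condition.

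Protocadherins are the largest group of the cadherin superfamily of adhesion proteins. The clustered genes lie in tandem arrays named alpha, beta and gamma (PCDHA, PCDHB and PCDHG). Each array member has a large first exon with a promoter of its own. In the alpha and gamma arrays that exon is spliced to constant exons shared by the whole array, while beta genes use their exon alone. In neurons a cell switches on a small choice of these promoters, which gives it a surface identity. CTCF and cohesin loop the chosen promoters to distant enhancers, and DNA methylation keeps others silent. The single genes, also called non-clustered protocadherins, are scattered over several chromosomes, and many are very long. JARID2 is an accessory subunit of PRC2, the Polycomb complex that methylates histone H3.

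The promoter sequence that sets the clustered genes apart is a short conserved element with the core CGCT, just upstream of most clustered start sites. Matches to the core are shown for genes with a JARID2 peak near the start. In each array they are also shown for the first gene along the chromosome whose window held the core and which had no peak. Windows were picked by the letters of the core alone, so a window shown need not be a copy of the element. The PCDHAC2 match, 95 bases upstream of the start, lacks the run of bases before the core that PCDHA6 and PCDHA1 share. Each line is 60 bases of the sense strand, from RefSeq on GRCh38.p14 (all on chromosome 5, plus strand), with the core and, where present, a following GT in capitals. In the alpha array PCDHA6 (chr5:140827885-140827944) and PCDHAC2 (chr5:140966353-140966412) had peaks within 1 kb of a transcription start site (TSS), and PCDHA1 (chr5:140786074-140786133) had none.
PCDHA6: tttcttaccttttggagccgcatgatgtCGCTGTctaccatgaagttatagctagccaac
PCDHAC2: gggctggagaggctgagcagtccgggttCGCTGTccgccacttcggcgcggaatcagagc
PCDHA1: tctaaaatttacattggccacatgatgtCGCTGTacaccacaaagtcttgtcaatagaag

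In the beta array PCDHB7 (chr5:141172554-141172613) had a peak 2 to 3 kb from its TSS and PCDHB2 (chr5:141094532-141094591) had no peak.
PCDHB7: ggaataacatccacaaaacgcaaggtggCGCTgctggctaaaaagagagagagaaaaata
PCDHB2: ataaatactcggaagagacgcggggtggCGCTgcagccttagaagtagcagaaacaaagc

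In the gamma array PCDHGB1 (chr5:141350013-141350072), PCDHGA7 (chr5:141382637-141382696) and PCDHGC3 (chr5:141475868-141475927) had peaks within 1 kb of a TSS, and PCDHGA1 (chr5:141330391-141330450) had no peak.
PCDHGB1: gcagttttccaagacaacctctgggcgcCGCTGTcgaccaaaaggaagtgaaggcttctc
PCDHGA7: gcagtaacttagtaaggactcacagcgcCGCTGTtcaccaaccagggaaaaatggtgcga
PCDHGC3: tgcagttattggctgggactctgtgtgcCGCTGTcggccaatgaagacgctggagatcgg
PCDHGA1: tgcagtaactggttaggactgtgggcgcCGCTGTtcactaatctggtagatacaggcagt

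RefSeq gave a promoter window (250 bases before to 50 after a start) for 58 of the 66 protein-coding protocadherins, 47 clustered and 11 single. A sense-strand CGCT lay 32 to 120 bases upstream of the start in 43 of 47 clustered genes (91.5%), against 37.6% of 15843 protein-coding genes and 3 of the 11 single genes. Anywhere in the window the 4 letters were more common in general: on the sense strand they were found in 46 of 47 clustered genes (97.9%) and 70.5% of all, and on either strand in 46 of 47 and 84.4%. CGCTGT, which contains the core, was chosen after its values were seen, as the most frequent 6 letters in the clustered windows. On the sense strand it was found in 24 of 47 clustered genes against 9.18% of all genes, and on either strand in 25 against 16.7%. By array the sense-strand count was 6 of 13 in PCDHA, 1 of 14 in PCDHB and 17 of 20 in PCDHG. In the 60-base windows, the base just before the core was T in 12 of 12 PCDHA windows, G in 11 of 12 PCDHB windows and C in 13 of 19 PCDHG windows. All 10 clustered genes with a promoter peak had the core 32 to 120 bases upstream, and so did 33 of the 37 without one. CGCTGT on the sense strand was found in 8 of the 10 with a promoter peak, in 5 of the 5 with a peak within 1 kb, and in 16 of the 37 without a promoter peak. The arrays differ in both respects: PCDHG had 6 of the 10 genes with a promoter peak and CGCTGT in 17 of 20 genes. PCDHB had 1 of the 10 and CGCTGT in 1 of 14, so the pooled counts mix the peak with the array. These counts are a description of few genes and were not tested. A match of letters is a description and does not show that a window holds the conserved element or that a factor binds.

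**Figure D1:**
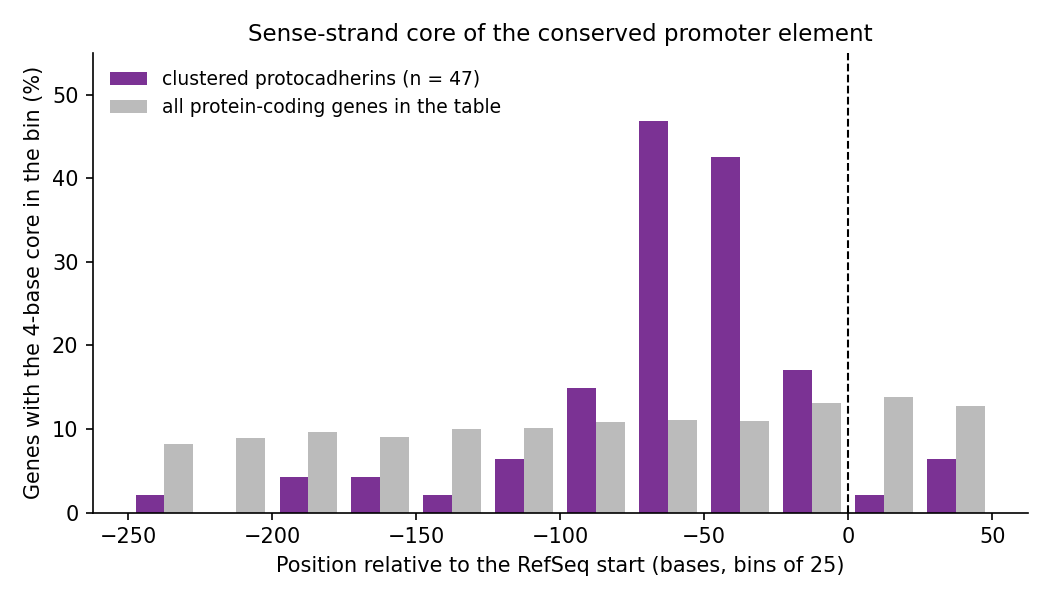
Share of genes (%) with the 4-base core of the element on the sense strand in each bin of 25 bases, by position relative to the RefSeq start (dashed line), for 47 clustered protocadherins and all protein-coding genes of the table. The core was found between 75 and 50 bases upstream in 46.8% of clustered genes and between 50 and 25 bases upstream in 42.6%, against 11.1% and 10.9% of all genes.

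Apart from this element, most clustered promoters were poor in G and C. Their median GC content was 39.7% (range 32.3 to 66.0) with a median of 7 CpG dinucleotides per 300 bases, against 62.7% and 22 over all protein-coding genes. The 4 C-type genes with a window (PCDHAC1, PCDHAC2, PCDHGC3 and PCDHGC4), which lie at the downstream ends of their arrays, stood apart with a median GC content of 61.8% and 20.5 CpGs. Single genes had a median of 58.0% and 15 CpGs. Clustered genes with a promoter peak had a median GC content of 40.3% and those without one 39.7%, so these medians lay close together. Over all protein-coding genes the corresponding medians were 64.7% and 61.7%.

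Peaks of the clusters lay mostly in promoters, and peaks of the single genes mostly in introns and between genes. A promoter peak here is one the authors' annotation puts within 3 kb of a TSS. Of the 20 clustered peaks, 13 were promoter peaks (65.0%, 95% exact Clopper-Pearson interval 40.8 to 84.6). Of the 69 single-gene peaks, 3 were (4.35%, 0.906 to 12.2). Over the whole list 20.5% of the peaks were promoter peaks, so the clusters stood above and the single genes below that share, and the intervals of the groups did not overlap. Within 1 kb of a TSS lay 6 of 20 clustered peaks and 1 of 69 single-gene peaks, against 10.7% of all peaks. These intervals cover counting error only. For protocadherin peaks, the annotated distance ran to the near edge of the peak on the plus strand, where all clustered genes lie. For minus-strand genes, among them PCDH1, PCDH8 and PCDH15, it ran to the far edge, so the groups were not classed alike. PCDH8 and PCDH15 had further peaks with a near edge within 3 kb. By near edge the single-gene counts at 3 kb and at 1 kb would be higher. The clusters hold many start sites within a short stretch of chromosome. The share of their sequence that lies within 3 kb of a start was not measured, and its part in these shares was not tested.

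**Figure D2:**
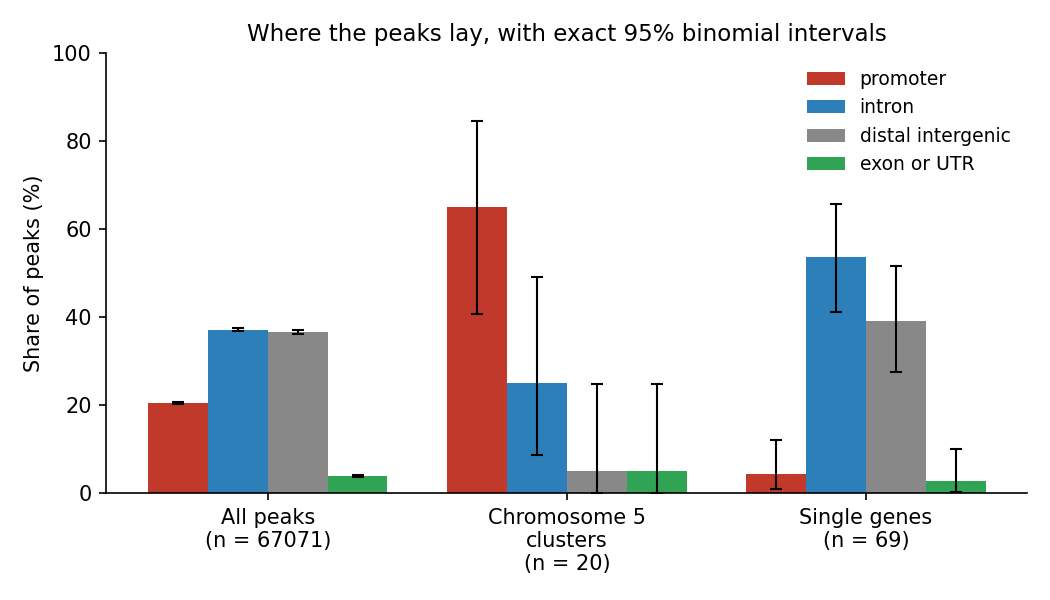
Share of peaks (%) by annotation class for all 67071 peaks, the 20 peaks of the chromosome 5 clusters and the 69 peaks of single genes, with exact 95% binomial intervals (peaks downstream of genes, 1.71% of all and 0 of both protocadherin groups, are not drawn). Promoters took 65.0% of the clustered peaks, while introns took 53.6% and distal intergenic sequence 39.1% of the single-gene peaks.

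Peak strength in both groups lay near the middle of the whole list. The authors' fold enrichment, a linear ratio over the background that the peak caller estimated, had a median of 6.18 in the clusters (quartiles 5.92 to 7.06) and of 6.18 in the single genes (5.30 to 6.86). The median over all peaks was 5.95 (5.28 to 6.85). Fold values are often tied, and 6.18 was the most frequent in the list, given to 7555 of all peaks. It was given to 3 clustered and 14 single-gene peaks, so little is read from the equal medians. Tags per peak, the number of sequenced fragments counted in it, had medians of 13.5 and 12 against 12. At an FDR (the authors' false discovery rate per peak) of at most 5%, where 1.24% of all peaks lie, there were 0 of the 89 protocadherin peaks (exact upper limit 4.06%). At an FDR of at most 20% there were 1 of 20 clustered and 2 of 69 single-gene peaks, against 4.15% of all peaks. The 3 were at PCDHA6, PCDH1 and PCDH7. An FDR above 40% was given to 10 of 20 clustered and 47 of 69 single-gene peaks, where 70.3% of all peaks have one. A count of 0 is near what the share of 1.24% gives for so few peaks, and nothing is read from it. The PCDHA6 and PCDH1 peaks were among the 2.09% and 2.22% of the list with the lowest FDR.

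**Figure D3:**
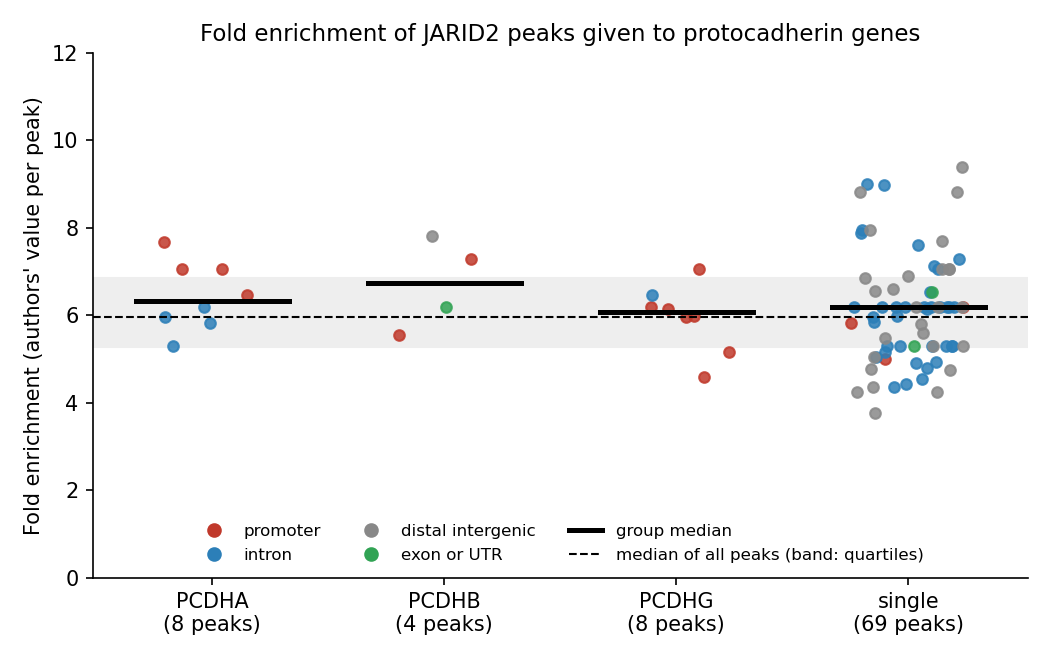
Fold enrichment of every protocadherin peak (points, coloured by annotation class) in PCDHA, PCDHB, PCDHG and the single genes, with the median of each group (bars) and the median and quartiles of all 67071 peaks (dashed line and band). The group medians of 6.33, 6.73, 6.07 and 6.18 all lie inside the band, and the highest point is the PCDH1 peak at 9.39.

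By gene, peaks were given to fewer clustered genes than to genes in general. Of 53 protein-coding clustered genes in RefSeq, 13 had a peak of any class (24.5%), against 56.3% of 20037 protein-coding genes. The count was 4 of 15 in PCDHA, 3 of 16 in PCDHB and 6 of 22 in PCDHG. A promoter peak was given to 10 of 53 (18.9%), against 33.1% of all protein-coding genes: 3 of 15 in PCDHA, 1 of 16 in PCDHB and 6 of 22 in PCDHG. Of the 13 single genes 9 had a peak and, by the annotation, 2 a promoter peak. That count leaves out PCDH8, whose peak had its near edge within 3 kb of its TSS. Each peak is given to 1 nearest transcript, and in the alpha and gamma arrays the transcripts overlap, so a peak inside the array lies within several genes and carries the name of 1. The other 2 clustered symbols, PCDHB18 and PCDHGB8P, are pseudogenes.

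In the alpha array peaks fell near PCDHA5 and PCDHA6 and around the C-type genes. PCDHA6 had the lowest FDR of all 89 protocadherin peaks. That peak (chromosome 5, 140204297 to 140205241, hg19) lay 2322 bp upstream of its TSS and held 25 tags (95% Poisson interval 16.2 to 36.9), with 7.06-fold enrichment and an FDR of 10.7%, a value reached by 2.09% of all peaks. A second PCDHA6 peak, 456 bp upstream (140206681 to 140207107), was weaker, with 11 tags, 6.47-fold enrichment and an FDR of 43.6%. The PCDHA5 peak had the largest fold enrichment of the array, 7.67, on 14 tags, but an FDR of 45.3%, and lay 1717 bp upstream of the TSS.

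PCDHAC2, a C-type gene whose use is less restricted than that of the other alpha genes, had 4 peaks. Its TSS-proximal peak (140345892 to 140346342) began 73 bp downstream of the TSS, with 10 tags, 7.06-fold enrichment and an FDR of 47.01%. Intronic peaks 11834 and 8110 bp upstream held 19 and 18 tags, with 6.18- and 5.82-fold enrichment. The last, in the intron before the final constant exon, had 5.29-fold enrichment. PCDHAC1 had 1 intronic peak of 5.95. Between the last PCDHA6 peak and the PCDHAC1 peak was the longest stretch without a peak in the clusters, 107.8 kb. All peaks in the alpha introns share those introns with the other alpha genes upstream.

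The beta array, whose genes are single exons, had 4 scattered peaks of 10 to 14 tags. PCDHB1 had the highest of all clustered peaks by fold enrichment, 7.82 with an FDR of 34.9%, but it lay 29593 bp upstream of the gene in intergenic sequence. The PCDHB7 peak, 2116 bp upstream of the TSS, had 7.28 and an FDR of 42.6%. PCDHB4 had 6.18 in its 3′ UTR. At the pseudogene PCDHB18 a peak overlapped the TSS with 5.54 and an FDR of 37.1%. The array thus had no peak within 1 kb of the TSS of a protein-coding beta gene.

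In the gamma array 7 of the 8 peaks were promoter peaks, spread over most of its length. PCDHGB1 had the most tags, 23 (14.6 to 34.5), in a peak overlapping its TSS (140729116 to 140730110) that was 995 bp wide, the widest of the clusters, with 5.95-fold enrichment and an FDR of 39.5%. PCDHGC3, the C-type gene at the downstream end of those with a peak, had the largest fold enrichment of the array, 7.06, in a peak over its TSS (140855198 to 140855806) with 14 tags and an FDR of 38.8%. Its second peak was intronic, 12931 bp upstream, with 21 tags, 6.47-fold enrichment and a lower FDR of 23.9%. The lowest FDR of the array, 20.9%, was 1040 bp upstream of the pseudogene PCDHGB8P on 20 tags with 5.99-fold enrichment. PCDHGA9 (6.18), PCDHGA2 (6.14), PCDHGA7 (5.16) and PCDHGA4 (4.6) followed, on 11, 12, 11 and 18 tags. PCDHGA7's peak ended 242 bp upstream of its TSS, and those of the other members of this set were 1214 to 2414 bp upstream.

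The 250 bases upstream of PCDHGC3 hold the core 5 times (capitals), and they are shown because this start carried the strongest gamma peak by fold enrichment (RefSeq, GRCh38.p14, chr5:141475716-141475965, plus strand). The listed transcript of that peak was 36.963 kb long, and the RefSeq start was not placed within the hg19 peak.
PCDHGC3 upstream: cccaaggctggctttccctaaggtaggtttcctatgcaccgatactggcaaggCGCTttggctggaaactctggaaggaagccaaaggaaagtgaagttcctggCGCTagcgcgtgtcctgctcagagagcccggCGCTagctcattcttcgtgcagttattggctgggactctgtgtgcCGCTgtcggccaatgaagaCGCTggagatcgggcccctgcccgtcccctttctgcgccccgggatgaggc

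By position, from the first to the last clustered peak (140198803 to 140855806) there were 21 peaks in 657 kb, or 3.20 per 100 kb (95% Poisson interval 1.98 to 4.89), against 2.80 for chromosome 5. A span cut at its own outermost peaks gives too high a density by construction, here and in the spans of arrays and genes that follow. With 50 kb added on each side the clusters had 2.77 peaks per 100 kb. Of the 21 peaks, the only one without a PCDH symbol was named for TAF7, a general transcription factor subunit gene between the beta and gamma arrays, at 6.61-fold. The density was 4.64 in the alpha span, 1.88 in the beta span and 5.71 in the gamma span, with intervals of 2.004 to 9.15, 0.511 to 4.80 and 2.46 to 11.2 that overlap. Gains and losses of DNA in this line were not taken into account.

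**Figure D4:**
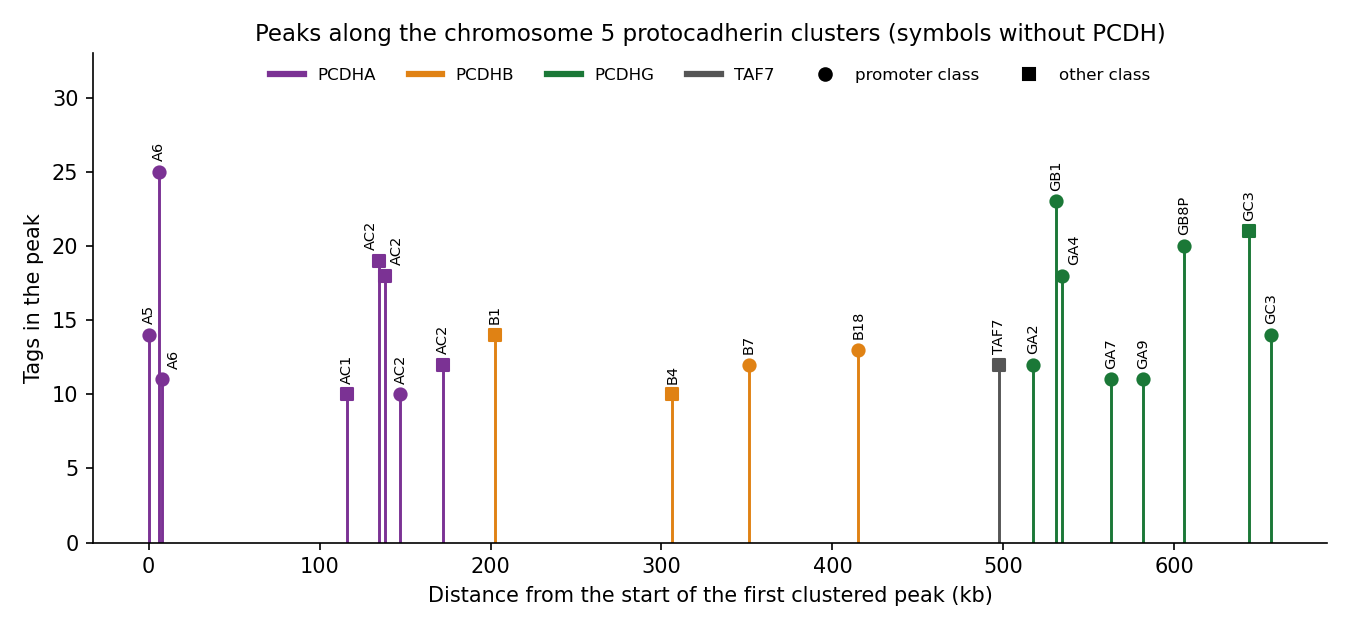
Tags in each of the 21 peaks (vertical axis) along the chromosome 5 clusters, by distance in kb from the start of the first clustered peak. Circles are promoter peaks and squares other classes. The tallest are PCDHA6 with 25 tags and PCDHGB1 with 23, and the beta array has 4 peaks of 10 to 14 tags.

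Clustered promoter peaks lay on the upstream side of the start more often than promoter peaks of the whole list. Of the 13, 9 were upstream (69.2%, exact interval 38.6 to 90.9), 3 overlapped the TSS and 1 was downstream. Over all 13764 promoter peaks 36.7% were upstream, 26.6% overlapped and 36.6% were downstream. In a tandem array the sequence upstream of one start is close to the preceding gene, so an upstream peak can lie near that gene's exon. Which exon each peak overlapped was not tested.

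Among the single genes, PCDH1 was the only one with a peak over a TSS. PCDH1 encodes a delta-1 protocadherin of airway and other epithelia, and lies on chromosome 5 beyond the clusters. The TSS peak (141258060 to 141258977) held 30 tags (20.2 to 42.8), with 5-fold enrichment and an FDR of 34.6%. Its other 5 peaks included the largest fold enrichment of all protocadherins, 9.39 on 14 tags (FDR 30.1%, 141184876 to 141185293). Another had an FDR of 11.8% on 24 tags at 6.55-fold. Both were annotated as distal intergenic, with far edges 60890 and 16709 bp downstream of a PCDH1 TSS. A value of 9.39 or more was given to 1.86% of all peaks. The high fold, the low FDR and the start site thus fell on different peaks.

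The 250 bases upstream of the PCDH1 start in RefSeq are shown as an example of a single gene, with each CG in capitals (GRCh38.p14, chr5:141869628-141869877, minus strand). They hold 6 CGs and no CGCT on the sense strand, against 15 CGs and 5 cores for PCDHGC3. By the shift between builds seen at PCDHGC3 (hg19 start 140855580, GRCh38 window ending at 141475965), this is not the start of the listed PCDH1 transcript (hg19 141258811). It lies outside the TSS peak, so the sequence is not that of the start with a peak.
PCDH1 upstream: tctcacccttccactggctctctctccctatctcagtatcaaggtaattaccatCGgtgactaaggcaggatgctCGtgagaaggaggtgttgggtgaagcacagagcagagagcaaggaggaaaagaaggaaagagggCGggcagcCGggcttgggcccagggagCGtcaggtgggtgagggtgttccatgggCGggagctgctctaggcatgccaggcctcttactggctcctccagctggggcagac

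PCDH15, PCDH7 and PCDH9 with its antisense RNAs held most single-gene peaks. PCDH15 encodes a tip-link protein of the hair cells of the inner ear. It had 21 peaks over 1550 kb, 20 of them annotated as intronic and 1 as promoter (5.82, FDR 37.8%). The far edge of the promoter peak lay 1051 bp downstream of a TSS and its near edge within 1 kb. The fold enrichments of PCDH15 ran from 4.37 to 7.89 with a median of 6.18, and its lowest FDR was 22.2%. PCDH7, a delta-1 protocadherin, had 13 peaks with a median of 5.99. Of these, 8 were intergenic, and the strongest had 8.83-fold enrichment on 22 tags with an FDR of 17.6% (chromosome 4, 30706425 to 30707284), 14753 bp upstream of a TSS. A second PCDH7 peak 90882 bp upstream had an FDR of 22.1% and 7.70-fold enrichment.

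PCDH9, another long delta-1 gene, was named in only 2 peaks (6.18 and 5.30), while its antisense RNAs PCDH9-AS1 to PCDH9-AS4 were named in 12, of which 11 were intronic. The annotation puts 8 of those 12 inside introns of PCDH9 itself. The highest were PCDH9-AS3 with 9-fold (FDR 34.7%) and PCDH9-AS4 with 8.99 (FDR 34.8%), on 15 and 16 tags. Enrichment of 9-fold or more was given to 2.10% of all peaks.

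**Figure D5:**
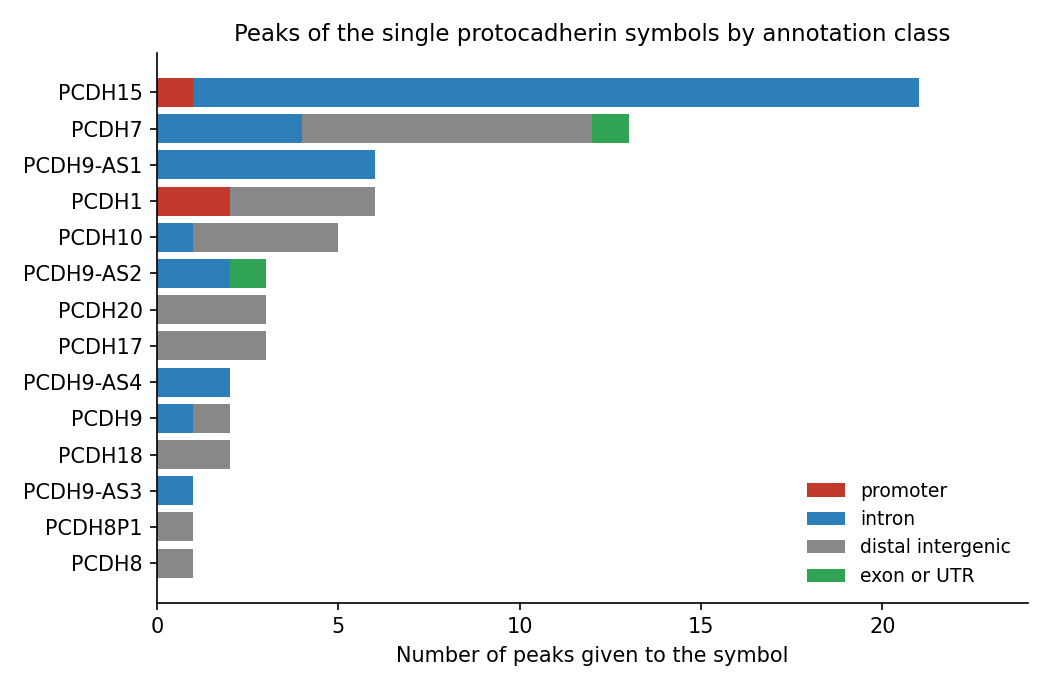
Number of peaks (horizontal axis) given to each of the 14 single protocadherin symbols, coloured by annotation class. PCDH15 has 21 peaks and PCDH7 13, and promoter peaks occur at PCDH1 (2) and PCDH15 (1).

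The delta-2 genes, which share a cytoplasmic motif that recruits the WAVE actin regulators, are PCDH8, PCDH10, PCDH17, PCDH18 and PCDH19. Their listed peaks were annotated as intergenic or intronic. With so few genes nothing is read from the lack of a peak of the promoter class, which 33.1% of protein-coding genes had. PCDH10 had 5 peaks with a median of 4.76, the lowest FDR being 21.5%. PCDH17 had 3, the highest 8.83 on 10 tags (FDR 31.3%) and 170730 bp from a TSS. PCDH18 had 2, up to 6.89. PCDH8 had 1 wide peak of 1441 bp (53424728 to 53426168) with 36 tags, the most of any protocadherin peak, but 4.77-fold enrichment and an FDR of 43.6%. The annotation calls it intergenic. Its far edge lay 3393 bp upstream of the TSS (53422775), but its near edge was within 3 kb. The pseudogene PCDH8P1 had 4.24. PCDH20 had 3 intergenic peaks, up to 7.95. No peak was given to the delta-2 gene PCDH19, to PCDH11X and PCDH11Y, a delta-1 gene pair on the sex chromosomes, or to the endothelial gene PCDH12.

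Over the span of its intronic peaks PCDH15 had 2.37 peaks per 100 kb (1.71 to 3.20) against 2.61 for chromosome 10. PCDH9 had 1.61 (0.856 to 2.75) against 1.68 for chromosome 13, and PCDH7 3.77 (2.06 to 6.32) against 2.63 for chromosome 4.

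Related genes, from lists written with earlier results known, gave the following. Of 48 other genes of the cadherin superfamily, 38 had a peak (79.2%, against 56.3% of all protein-coding genes) and 20 a promoter peak (41.7%, against 33.1%). Their 196 peaks had a median fold enrichment of 6.10, against 5.95 for all peaks, and 4 had an FDR of at most 20% (2.04%, against 4.15%). CELSR2, a planar polarity cadherin, led with 12.84 on 20 tags at its promoter (FDR 6.94%), followed by CDH10 (10.6, FDR 14.0%) and RET (9.71, FDR 27.9%). Of 20 chromatin regulators of the clusters, 15 had a peak (75%) and 7 a promoter peak (35.0%), with a median of 6.06 and 1 of 43 peaks at an FDR of at most 20% (2.33%). The neuronal gene repressor gene REST had 9.71 at its promoter (FDR 24.97%), and the cohesin genes PDS5B and RAD21 had 8.83 and 8.66 outside promoters. Of 19 cytoplasmic partners and processing factors, 15 had a peak (78.9%) and 8 a promoter peak (42.1%), with a median of 5.72 and 1 of 63 peaks at an FDR of at most 20% (1.59%). DAB1 (9.71) and RELN (8.83), both of the reelin pathway, had intronic peaks, and the WAVE complex gene CYFIP1 had 8.16 at its promoter. At an FDR of at most 5% there was 0 in each of these lists, against 1.24% of all peaks.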

How the data were processed

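JARID2 ChIP and input DNA were sequenced from MDA-MB-231 cells, 1 library each. The submitters' processing notes name hg19 as the build and, without roles or order, the tools Bowtie 0.12.8, bcl2fastq, ChIPseeker, MACS and MACS2. How the input entered the peak calls, and with which settings, was not given in the sources used here. Per the file headers, each peak carries a deposited count of tags without normalisation. Fold enrichment was deposited as a ratio on the linear scale, and the FDR was deposited as a percent. The deposited score has an unreadable header and was read, from its place and smallest value of 30, as −log10 p times 10.

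Protocadherin peaks were taken by symbol and split by the letter A, B or G after PCDH. Genes were matched by symbol or a synonym of 1 gene to 20037 protein-coding genes of RefSeq (GRCh38.p14), which gave names and promoter windows. 11302 of 26257 symbols matched, and 22 of the 29 protocadherin symbols. GC content used the first window of a gene, and letters any window. Shares carry exact Clopper-Pearson intervals and tags and densities exact Poisson intervals, all at 95%. All cover counting error only, since PCR copies are not independent molecules. Peaks and genes of 1 library are not replicates, so no test was made. Python 3.11.15, pandas 2.3.3 and scipy 1.17.1 were used, and the summaries were tested on simulated data.

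Values are given for the 5 symbols of largest fold enrichment in each array and among the single genes, every peak at an FDR of at most 20% or within 1 kb of a TSS, the single genes with most peaks, and up to 3 genes per related list. Remaining members were added after their values were seen. The members, lists and rules were chosen with earlier results of these data known. Alternatives were a score of at least 50, a promoter reach of 1 kb, the top 25% by fold enrichment, merging within 1 kb, other choices of symbols or span, and leaving out PCDH15, the last added after the data were examined.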

Additional observations from a re-analysis of the deposited data

How the results depend on the processing

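Of 49 recomputed values for 16 results, 31 stayed within the interval of the reported value or, for counts of genes, near it. The other 18 moved beyond its interval or, for counts of genes, well away from it. Some of the 31 could not move: merging within 1 kb joined no protocadherin peaks, and a count of 0 at an FDR of at most 5% stays 0 in any subset. The intervals of small groups were wide, so little is read from the 31. With peaks of a score of at least 50 only, clustered genes with a peak fell from 13 to 3 and with a promoter peak from 10 to 1, and single genes from 9 to 5 and from 2 to 0. Over all protein-coding genes the shares fell likewise, from 56.3% to 18.3% and from 33.1% to 9.88%. The median fold enrichment of single-gene peaks was then 7.49 on 10 peaks, where all peaks had 7.06. The promoter share of single-gene peaks was 0% and that of clustered peaks 50% on 4 peaks, against 32.9% of all peaks. The density in the clusters was 0.609 per 100 kb on 4 peaks, and that of the whole list was not computed at this score. The score was reached by 4 of 20 clustered peaks (20%), against 12.9% of all peaks. In the top 25% by fold enrichment 6 clustered genes had a peak and 5 a promoter peak, 0 single genes had a promoter peak, and the promoter share of single-gene peaks was 0%, while 25.7% of all protein-coding genes had a peak and 11.2% a promoter peak. The promoter share of the clusters was 83.3% on 6 peaks, against 21.8% of all. With a promoter reach of 1 kb the clustered share was 30%. By the annotated distance, promoter peaks were left at 5 clustered genes and 1 single gene. The highest peak of each single symbol had a median of 7.92, and that of each clustered symbol 6.18. A highest value tends to rise with the number of peaks. Only 1 peak was given to 12 of 15 clustered symbols and to 3 of 14 single symbols. Promoter peaks alone gave 20 cadherin, 7 regulator and 8 partner genes. These settings keep fewer peaks by construction. Leaving out PCDH15 gave a promoter share of 4.17% for the other single genes. With no counts outside peaks, the list sets a floor of 9 tags on what can be seen.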

Other observations

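Long protocadherin genes held more peaks than their names show. A further 27 peaks were annotated to introns of PCDH15 (16), PCDH7 (9) and PCDH9 (2) but carried the symbols of other genes. With these, 36 peaks lay in the introns of PCDH15, with a median fold enrichment of 6.18, and 13 in those of PCDH7, with a median of 5.99. For PCDH9, 11 peaks annotated to its introns had a median of 6.18. Further PCDH9-AS1 and PCDH9-AS2 peaks lay within the span of its listed transcript (chromosome 13, 66876967 to 67804468, hg19) but were annotated to the antisense RNAs. The strongest of the 27 by FDR lay in intron 33 of 35 of a PCDH15 transcript (chromosome 10, 56144148 to 56144930, hg19), with 21 tags, 7.06-fold enrichment and an FDR of 16.9%, below every FDR that the list gives under the name PCDH15.

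Between the clusters and PCDH1, a promoter peak of ARAP3, which encodes a regulator of small GTPases, had 9.99-fold enrichment on 16 tags with an FDR of 9.68% (chromosome 5, 141061248 to 141061568). Its fold enrichment was above that of every protocadherin peak. The DIAPH1 promoter peak, nearer to the gamma array, had 6.38 (FDR 37.6%).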
